A study of Mus musculus with 28 samples.

Results

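Lewis lung carcinoma (LLC) cells, a mouse lung cancer line, were given the glucose transporter inhibitor BAY-876 and then tumour necrosis factor (TNF), and their transcriptome was compared with that of control cells. The comparison covers the 12320 genes, of 55291 gene rows, that reached 1 TPM (transcript abundance corrected for length and scaled to a fixed total per library) in at least 3 of the 6 libraries compared. The combination group had received 200 nM BAY-876 for 24 h before 20 ng/ml TNF for 32 h. The control group was labelled vehicle and was collected at 32 h with neither agent. The same table held 3 libraries of cells given BAY-876 alone and 3 of cells given TNF alone, so each group had n = 3. All 4 groups carried the wild-type label and came from a single cell line. The labels do not say whether the inhibitor stayed on during TNF exposure, nor that replicates were separate cultures, so that p-values measure the spread between these libraries, which may be technical. RNA was made into mRNA sequencing libraries, and the study as a whole also sampled LLC cells at 36 h, sorted tumour cells and transferred OT1 T cells.

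The titles of all 3 combination libraries name BAY-876, but the treatment labels of replicates 2 and 3 name BAY-877 and BAY-878. The libraries were grouped by title. Replicate 1, whose labels do not conflict, is the first value wherever the 3 combination libraries are given below, and most list counts are followed by the count with replicates 2 and 3 left out. In that smaller fit the lone library was assumed to vary like the other groups. It called 2225 genes higher and 3598 lower than control, against 2655 and 4798 with all libraries.

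TNF binds its receptor Tnfrsf1a and assembles a complex that either activates NF-kappaB, which switches on chemokines and its own inhibitors, or engages Casp8 and starts cell death. The Casp8 relative Cflar and the ubiquitin ligases Birc2 and Birc3 hold the death arm back. BAY-876 blocks Slc2a1 (GLUT1), the main glucose carrier of many tumour cells; Txnip transcription follows intracellular glucose, and the factor Atf4 raises amino acid synthesis and uptake genes when nutrients are short.

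The short upstream sequences printed here come from the named NF-kappaB, chemokine, stress response and amino acid genes whose promoter held the searched motif and where no exon is annotated, and from Cyld, the member with the kappaB form that fell. Those of Rel, Chac1, Fgf21, Got1 and Pycr1, which also held a motif and rose, are not shown. The printed stretches show the kind of element that the factors of both pathways are known to read. They were taken from RefSeq (GRCm38.p6), lie within the 250 bases before a start site, and are written 5′ to 3′ on the gene's strand with the motif in capitals. In the first set the capitals mark GGNNTTTCC, a core form of the kappaB motif bound by NF-kappaB, on either strand. Nfkbia, Tnfaip3, Cxcl1 and Cxcl2 each held it in 2 places.
Nfkbia, chr12:55492648-55492696, minus strand: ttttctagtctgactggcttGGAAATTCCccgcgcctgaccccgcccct
Nfkbia, chr12:55492797-55492845, minus strand: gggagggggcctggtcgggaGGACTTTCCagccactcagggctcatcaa
Tnfaip3, chr10:19015411-19015454, minus strand: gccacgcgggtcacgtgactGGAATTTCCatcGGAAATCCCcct
Cyld, chr8:88696853-88696901, plus strand: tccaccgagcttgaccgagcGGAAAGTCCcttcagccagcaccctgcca
Bcl3, chr7:19822831-19822879, minus strand: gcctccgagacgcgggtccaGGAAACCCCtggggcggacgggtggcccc
Cxcl1, chr5:90891136-90891203, plus strand: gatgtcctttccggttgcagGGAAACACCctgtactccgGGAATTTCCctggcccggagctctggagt
Cxcl2, chr5:90903783-90903850, plus strand: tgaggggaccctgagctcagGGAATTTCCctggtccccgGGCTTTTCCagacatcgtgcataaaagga
Cxcl10, chr5:92349019-92349067, minus strand: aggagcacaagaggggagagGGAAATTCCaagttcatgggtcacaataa
Csf1, chr3:107760595-107760643, minus strand: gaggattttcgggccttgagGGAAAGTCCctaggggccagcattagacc
In the second set the capitals mark TGATGNAA, the C/EBP-ATF motif of amino acid response elements, on either strand, and Slc7a11 held it in 2 places.
Atf3, chr1:191183416-191183463, minus strand: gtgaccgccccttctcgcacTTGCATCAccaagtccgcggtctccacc
Slc7a11, chr3:50443633-50443699, minus strand: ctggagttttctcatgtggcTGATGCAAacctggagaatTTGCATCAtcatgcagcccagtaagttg
The kappaB form was present for 5.62% of 27025 genes with a window and 6.15% of the tested genes with one, in 6 of the 15 NF-kappaB list genes with a window and in 4 of 7 chemokine list genes. The C/EBP-ATF motif was present for 3.91% of all genes with a window and 2.27% of the tested genes with one, in 4 of 14 stress response genes and in 4 of 17 amino acid supply genes. Of the 10 list genes with the kappaB form 9 rose under the combination and Cyld, a deubiquitinase, fell. Of the 8 with the C/EBP-ATF motif 7 rose and Nupr1, a stress-induced chromatin protein, fell. Of the tested members of these lists, 12 of 19 NF-kappaB and 9 of 13 chemokine genes rose. So did 13 of 16 stress response and 21 of 22 amino acid supply genes. The share that rose among all tested genes with each motif was not computed. Whether the motif went with the rise was not tested. A match describes these letters only and is not evidence of binding.

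The combination changed most of the transcriptome, and more genes fell than rose. Of the 12320 genes, 7453 (60.5%) differed from control at an adjusted p under 0.05 (limma). Of these, 2655 rose (21.6%) and 4798 fell (38.9%). By at least 2-fold, 233 rose (1.89%) and 882 fell (7.16%). In 2841 genes (23.1%) all 3 combination libraries lay above all 3 control libraries, and in 5087 (41.3%) all 3 lay below. Differences were computed on log2(TPM + 1), which understates the change of low genes. The median difference over all genes tested was −0.131, against −0.0929 for BAY-876 alone and −0.0587 for TNF alone, which share the control libraries. The median size of the difference was 0.340, 0.209 and 0.247 in the same order. Quantile normalization moved the median to 0.0125 and gave 3621 higher and 3534 lower genes, so that 50.6% of calls were higher in place of 35.6%. Each list median below should be read against −0.131, and each list count against 21.6% higher and 38.9% lower.

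Against BAY-876 alone, the combination was higher for 2472 genes (20.1%) and lower for 3146 (25.5%). Against TNF alone it was higher for 1329 (10.8%) and lower for 3021 (24.5%). The filter used only the combination and control libraries, so genes that reached 1 TPM only with a single agent enter none of these counts. A separate term tested whether the response to BAY-876 differed with and without TNF; 200 genes (1.62%) passed it, 96 above 0 and 104 below.

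The libraries held 11884 to 12410 genes at 1 TPM or more, and pairs within a group correlated at r = 0.9874 to 0.9906 across genes. TPM keeps no sequencing depth, so the depth is unknown. Ribosomal protein genes made up 17.2% to 17.5% of TPM in control and 18.6% to 19.8% under the combination. T cell markers summed to at most 0.709 TPM in control and 0.526 TPM under the combination, and the 6 endothelial markers were each under 1 TPM in both. Among 12 myeloid markers 6 were listed at 0 in all combination libraries; their sum was 13.2 to 15.1 TPM in control and 22.1 to 25.0 TPM under the combination, mostly from Cd14. The fibroblast markers, here Col3a1 and Pdgfra in the main, summed to 845 to 867 TPM in control and 304 to 347 TPM under the combination. Of the LLC identity genes 11 of 12 were measured.

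**Figure D1:**
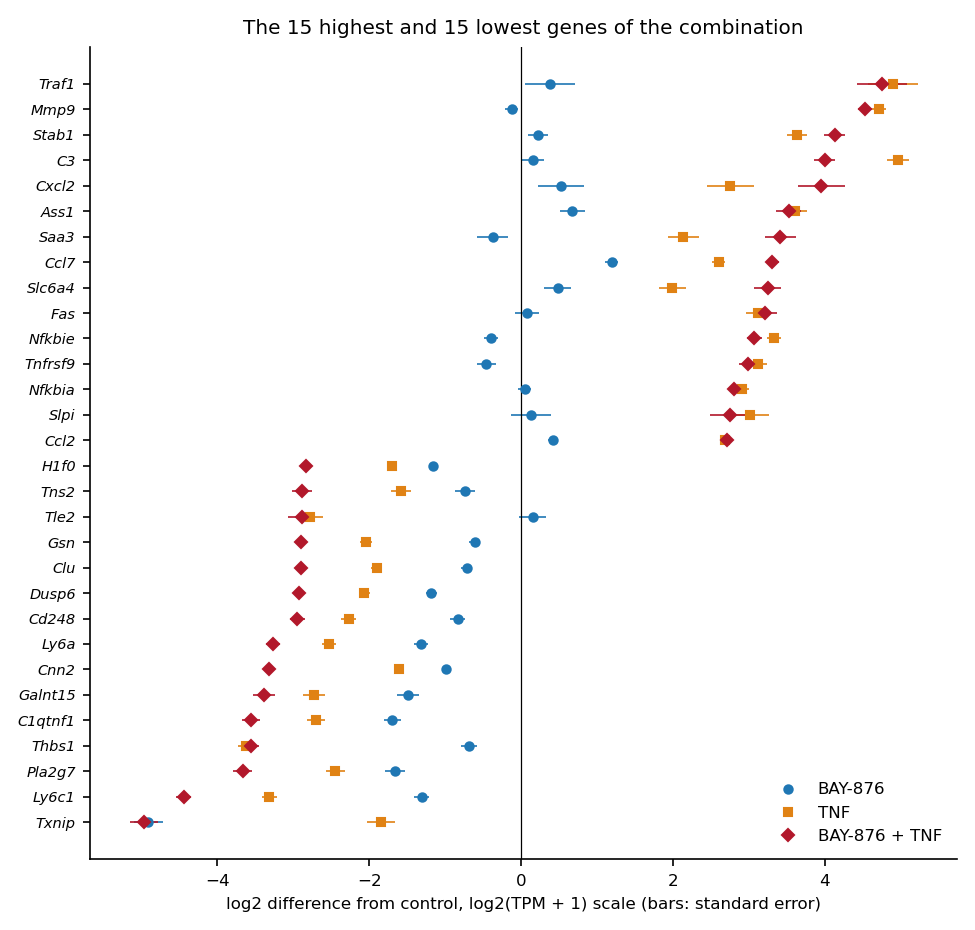
The 15 genes with the highest and the 15 with the lowest log2 difference of the combination from control (called, libraries not overlapping, at least 5 TPM in the higher group), with the differences of BAY-876 alone (circles) and TNF alone (squares) from the same control libraries; bars are standard errors. The combination ranges from −4.97 for Txnip to 4.76 for Traf1.

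The 15 genes with the largest rises were Traf1, Mmp9, Stab1, C3, Cxcl2, Ass1, Saa3, Ccl7, Slc6a4, Fas, Nfkbie, Tnfrsf9, Nfkbia, Slpi and Ccl2. Stab1, a scavenger receptor, measured 0.375, 0.527 and 0.259 TPM in control and 25.4, 23.4 and 21 TPM under the combination, and the TNF-only mean was 16.2 TPM. Slc6a4, the serotonin transporter, went from 0.084 TPM in control to 9.35 ± 1.26 TPM (SD), and it was higher than with TNF alone (3.41 ± 1.18 TPM; log2 1.26, adjusted p = 2.52e-04). Traf1, Mmp9, Stab1, C3, Slc6a4 and Fas were under 1 TPM in all control libraries. They passed the filter only through the combination, which holds wherever they are named below. Slpi, a secreted protease inhibitor, stood at 58.5 ± 2.79 TPM against 8.07 ± 2.51 TPM in control.

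The 15 genes with the largest falls were Txnip, Ly6c1, Pla2g7, Thbs1, C1qtnf1, Galnt15, Cnn2, Ly6a, Cd248, Dusp6, Clu, Gsn, Tle2, Tns2 and H1f0. Ly6c1, a surface protein anchored by lipid, measured 262, 260.2 and 276 TPM in control and 10.9, 12.9 and 10.3 TPM under the combination (log2 -4.44 ± 0.10, SE; adjusted p = 3.54e-11). BAY-876 alone left it at 107 TPM and TNF alone at 26 TPM, so that each agent lowered it and the combination stood below both. H1f0, a linker histone of non-dividing cells, followed the same order, at 686 ± 5.39 TPM in control, 308 TPM with BAY-876, 210.0 TPM with TNF and 95.4 ± 6.44 TPM with both (SD). Cnn2, an actin-binding calponin, fell from 113 TPM to 10.5 TPM. Its fall was larger than the sum of the falls under each agent, by -0.74 on the log2 scale (adjusted p = 0.002).

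**Figure D2:**
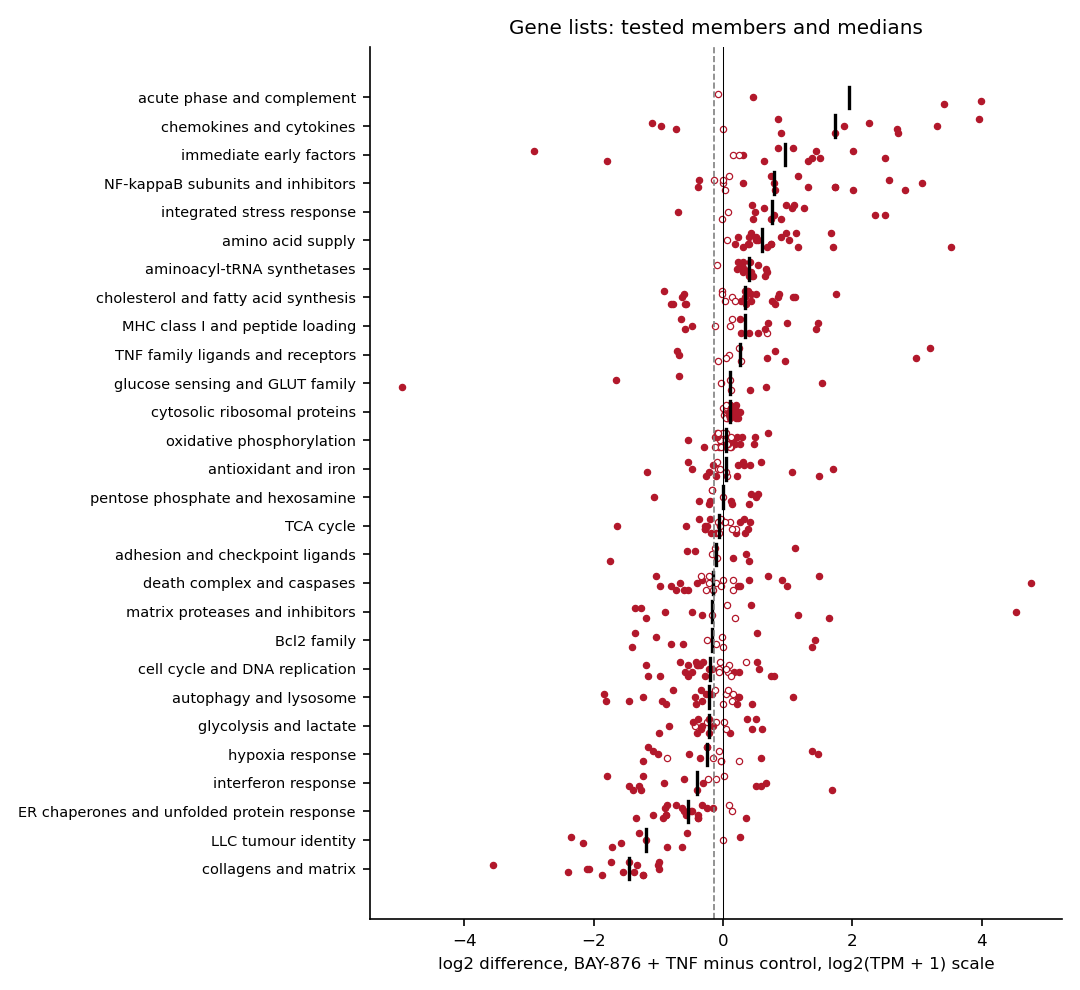
Log2 difference of the combination from control for the tested members of 28 gene lists, 1 row per list. Filled points passed adjusted p 0.05, open points did not, black ticks are list medians, and the dashed line is the median over all genes tested (−0.131).

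Most NF-kappaB feedback genes rose. Of 19 subunits and inhibitors tested 12 rose and 2 fell, where 21.6% of all genes rose, 8 rose at least 2-fold, and the list median was 0.79. Without combination replicates 2 and 3, 11 rose and 1 fell. Nfkbia, the inhibitor IkappaB-alpha (chr12:55489410-55492647 on the minus strand, protein coding), measured 49.5, 42.9 and 38.8 TPM in control and 304, 321 and 309 TPM under the combination. All treated libraries lay above all controls, and the difference was 2.81 ± 0.08 (SE) on the log2 scale (adjusted p = 1.96e-10). Nfkbie, another inhibitor, and Relb, a subunit of the alternative pathway, changed by 3.07 and 2.57. Tnfaip3, the deubiquitinase A20, rose from 1.87 ± 0.188 to 10.6 ± 0.719 TPM (SD). Traf1, an adaptor of TNF receptors, rose from 0.315 ± 0.143 to 34.7 ± 5.67 TPM (SD), and its 3 combination libraries held 28.5, 36.2 and 39.6 TPM.

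Set against TNF alone, none of the 19 genes was higher with the inhibitor added and 7 were lower, where 10.8% of all genes were higher and 24.5% lower; without replicates 2 and 3, 0 were higher and 3 lower, where 12.7% of all genes were lower. Nfkbia stood at 335 ± 12 TPM with TNF and at 311 ± 8.39 TPM with both (log2 -0.10, adjusted p = 0.35). Bcl3, a nuclear cofactor of NF-kappaB, was lower with both agents, at 4.89 ± 0.888 TPM against 7.68 ± 0.399 TPM (log2 -0.57, adjusted p = 0.026). Birc3, the NF-kappaB target that ubiquitinates Ripk1, was also lower, at 7.86 ± 1.24 TPM against 12.5 ± 1 TPM (log2 -0.62, adjusted p = 0.0049). Both calls were lost without replicates 2 and 3 (adjusted p = 0.08 for Bcl3 and 0.18 for Birc3).

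**Figure D3:**
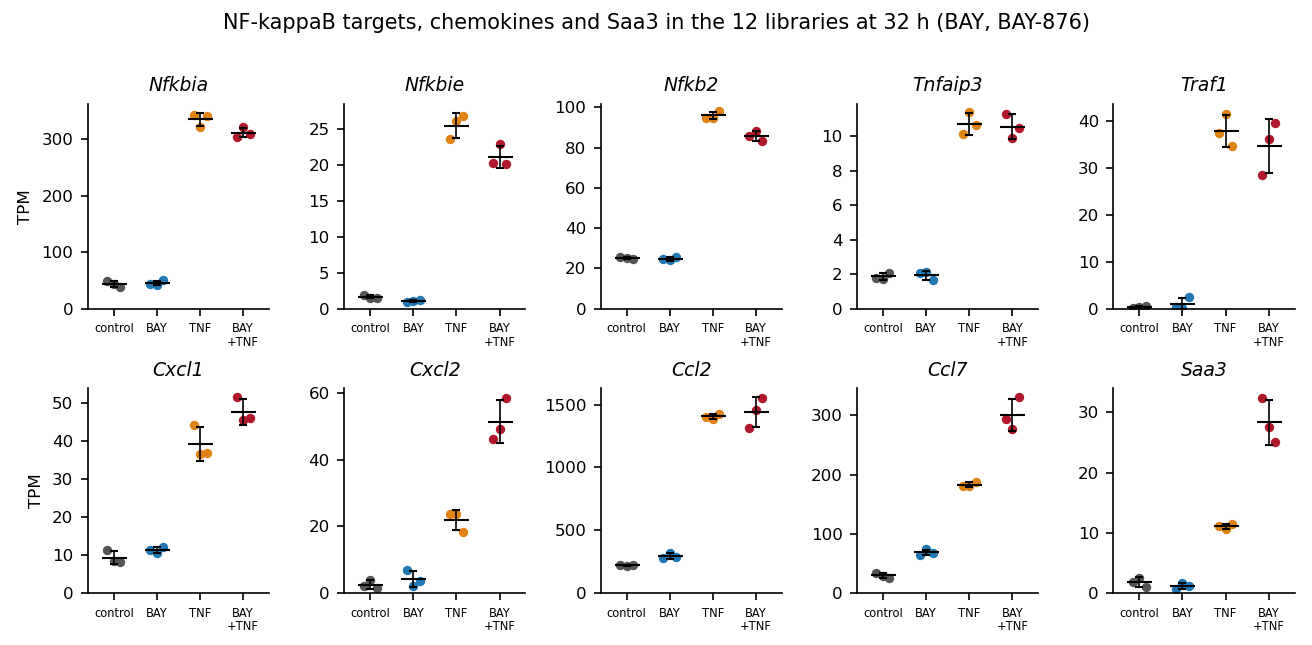
TPM of 10 genes in each of the 12 libraries (points, 3 per group), with the mean and SD of each group in black; each vertical axis is linear, starts at 0 and has its own scale. Nfkbia, Nfkbie, Nfkb2, Tnfaip3 and Traf1 are high in both groups given TNF, while all 3 combination libraries of Cxcl2, Ccl7 and Saa3 lie above all 3 of TNF alone.

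Most chemokine genes that passed the filter rose. Of 29 chemokine and cytokine genes 13 were tested, of which 9 rose and 3 fell, 7 rose at least 2-fold, and the median was 1.74; without replicates 2 and 3, 9 rose and 2 fell. Cxcl2, a neutrophil attractant, measured 2.2, 3.86 and 1.44 TPM in control, 6.98, 2.14 and 3.55 TPM with BAY-876, 23.7, 23.6 and 18.3 TPM with TNF and 46.3, 49.1 and 58.6 TPM with both. The combination libraries overlapped with no other group, and Cxcl2 was higher than with TNF alone by 1.20 ± 0.31 (SE) on the log2 scale (adjusted p = 0.01). That call was lost without replicates 2 and 3 (log2 1.06, adjusted p = 0.15). Ccl7, a monocyte attractant, had the same order, with 29.5, 68.5, 183 and 301 TPM on average, and a difference from TNF alone of 0.71 (adjusted p = 1.30e-04).

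Ccl2, the most abundant of these monocyte attractants, showed no detected difference between TNF alone and both agents. It reached 1407 ± 21.1 TPM with TNF and 1442 ± 121 TPM with both (SD), from 218 ± 6.82 TPM in control, and the difference between the TNF groups was 0.03 ± 0.06 (SE; adjusted p = 0.72). Cxcl1 held 51.7, 45.4 and 46 TPM under the combination against 11.2, 8.34 and 8.19 TPM in control. Its difference from TNF alone, 0.28 ± 0.11 (SE), missed the threshold (adjusted p = 0.08). Il34, a ligand of the Csf1 receptor, fell from 6.48 ± 1.29 to 2.49 ± 0.275 TPM (SD), a call that was lost without replicates 2 and 3 (log2 −0.99, adjusted p = 0.052).

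Acute phase and complement genes were mostly below the filter, with 4 of 17 tested. Saa3, an acute phase protein made outside the liver, measured 1.88, 2.54 and 1.02 TPM in control, 0.661, 1.63 and 1.18 TPM with BAY-876, 11.2, 10.6 and 11.4 TPM with TNF and 32.4, 27.5 and 25.1 TPM with both. With the inhibitor by itself the difference of Saa3 from control missed the threshold (log2 -0.37, adjusted p = 0.17), while the combination was 1.28 above TNF alone (adjusted p = 5.92e-04). C3, the central complement protein, went the other way, with 36.4, 36.1 and 35.5 TPM under TNF and 17.9, 18.2 and 17.5 TPM under both, while control held 0.163, 0.267 and 0.121 TPM. The combination was -0.97 relative to TNF alone (adjusted p = 3.54e-04), and no library overlapped between those groups.

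Of 19 immediate early and proliferation-linked factors 14 were tested, and Fos, Fosb, Egr1, Egr2 and Klf4 were below the filter. Of the 14 tested 10 rose and 2 fell, in both the full fit and the fit without replicates 2 and 3, with a median of 0.97. Myc, which drives growth and metabolism genes (chr15:61985391-61990374 on the plus strand), measured 388, 391 and 358 TPM in control, 424 TPM with BAY-876, 735 TPM with TNF and 1136, 1067 and 1012 TPM with both. All 3 combination libraries were above every other library, and the difference from control was 1.50 ± 0.05 (SE; adjusted p = 4.24e-10). The AP-1 genes Junb, Jund and Fosl2 rose by 1.44, 1.08 and 1.38 on the log2 scale, and Ier3 by 2.01. Dusp6, the phosphatase that switches off ERK, fell from 237 ± 4.21 to 30.4 ± 1.8 TPM (SD), and Egr3, an ERK-induced factor, from 5.99 ± 0.759 to 1.06 ± 0.601 TPM (SD).

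The TNF receptor itself was lower. Tnfrsf1a measured 74.1, 76.5 and 71.5 TPM in control and 45.6, 45.8 and 46.7 TPM under the combination, with no overlap (log2 -0.67 ± 0.04, SE; adjusted p = 8.01e-08). The second receptor, Tnfrsf1b, fell, with a log2 difference of -0.71. Of 12 tested ligands and receptors of the family 5 rose and 2 fell, and 6 and 2 did so without replicates 2 and 3. Fas, a death receptor, rose from 0, 0.305 and 0.195 TPM to 8.28, 9.66 and 11.5 TPM, and Tnfrsf9 (4-1BB), a costimulatory receptor, from 3.32 ± 0.482 to 33.3 ± 2.4 TPM (SD). Both were about as high with TNF alone, at 9.15 ± 1.05 and 36.6 ± 3.66 TPM.

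The initiator of TNF-driven death and its restraint both fell. Casp8 (chr1:58795374-58847503 on the plus strand) held 50.9, 44.6 and 46.8 TPM in control, 25.6, 27 and 27.7 TPM with BAY-876, 36, 38.7 and 38.1 TPM with TNF and 22.9, 22.7 and 22.1 TPM with both. The 3 combination libraries lay below all others, and the difference from control was -1.04 ± 0.06 (SE; adjusted p = 3.46e-08). Cflar, the neighbouring gene on the same chromosome (chr1:58711508-58758884 on the plus strand), held 31.1, 31.2 and 31.7 TPM in control and 16.6, 14.6 and 15.2 TPM under the combination (log2 -0.98 ± 0.06, SE; adjusted p = 1.05e-07). The ratio of the 2 genes was not tested.

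Across the death complex and caspase list 8 of 27 genes rose and 9 fell, with a median of −0.15, near that of all genes. Without replicates 2 and 3 the counts were 7 and 10, and quantile normalization turned the balance to 10 and 8. Ripk1, the kinase at the centre of the complex, stood at 14.5 ± 0.893 TPM in control and 16.2 ± 1.08 TPM under the combination (SD; log2 0.15, adjusted p = 0.081), a difference that passed the threshold after quantile normalization (log2 0.34, adjusted p = 0.000936) and without combination replicate 2 (log2 0.20, adjusted p = 0.033). The adaptors Traf2 and Traf1 rose by 0.92 and 4.76. Casp6, an executioner protease, and Apaf1, the scaffold of the mitochondrial death complex, fell, with log2 differences of -0.80 and -0.73. Casp4, an inflammatory caspase, rose from 2.2 ± 0.503 to 8.01 ± 1.54 TPM (SD). Ripk3, the kinase needed for necroptosis, was below the filter, at 0 in all 6 libraries compared.

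**Figure D4:**
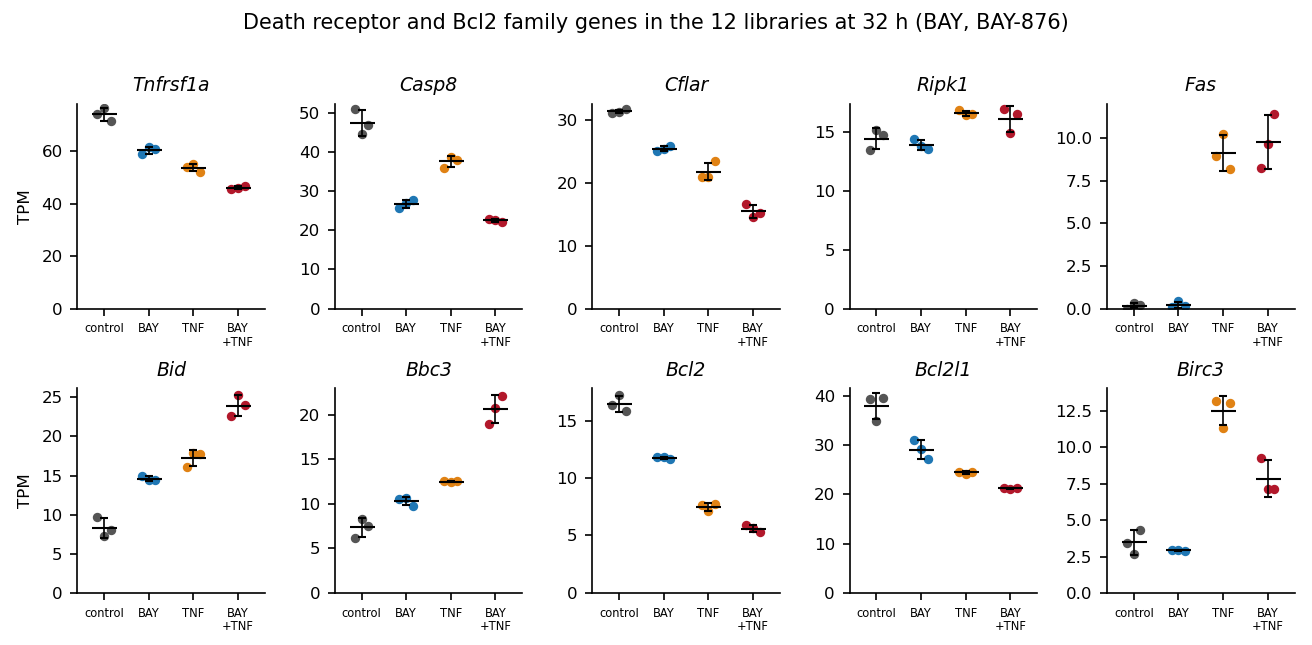
TPM of 10 death receptor, caspase and Bcl2 family genes in each of the 12 libraries (points, 3 per group), with the mean and SD of each group in black; axes are linear from 0, each with its own scale. Casp8, Cflar, Tnfrsf1a, Bcl2 and Bcl2l1 are lowest, and Bid and Bbc3 highest, in the 3 combination libraries.

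Among 12 Bcl2 family genes tested 3 rose and 5 fell, shares near those of all genes (21.6% and 38.9%), and 3 and 4 did so without replicates 2 and 3. Bcl2 and Bcl2l1, which favour survival, fell while the death-promoting Bid, Bbc3 and Bax rose. These genes are only a part of the list. The survival genes Mcl1 and Bcl2l2 were also tested and are not described here, so no direction is given for the family. Bcl2 measured 16.3, 17.2 and 15.8 TPM in control and 5.87, 5.65 and 5.26 TPM under the combination (log2 -1.40 ± 0.07, SE; adjusted p = 1.32e-08). It was lower with both agents than with BAY-876 (11.8 TPM; log2 -0.95) or with TNF (7.48 TPM; log2 -0.36), both past the threshold, though the latter call was lost without replicates 2 and 3 (adjusted p = 0.051). Bid, which Casp8 cleaves to reach mitochondria, rose from 9.71, 7.22 and 8.01 TPM to 22.6, 25.2 and 24 TPM, with 14.6 TPM under BAY-876 and 17.3 TPM under TNF. Bbc3 (PUMA), a p53 and stress target, rose from 6.22, 8.32 and 7.51 TPM to 19, 20.8 and 22.1 TPM, with 10.3 and 12.5 TPM under the single agents. In both genes the combination libraries lay above all other libraries, and the response to BAY-876 did not differ detectably with and without TNF (adjusted p = 0.3 and 0.47).

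Other members moved against that direction. The death-promoting genes Bad and Bmf fell, from 64.7 ± 2.89 to 31.5 ± 7.39 TPM and from 3.03 ± 1.83 to 0.611 ± 0.888 TPM (SD). The call for Bmf was lost without replicates 2 and 3 (log2 −0.52, adjusted p = 0.31).

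**Figure D5:**
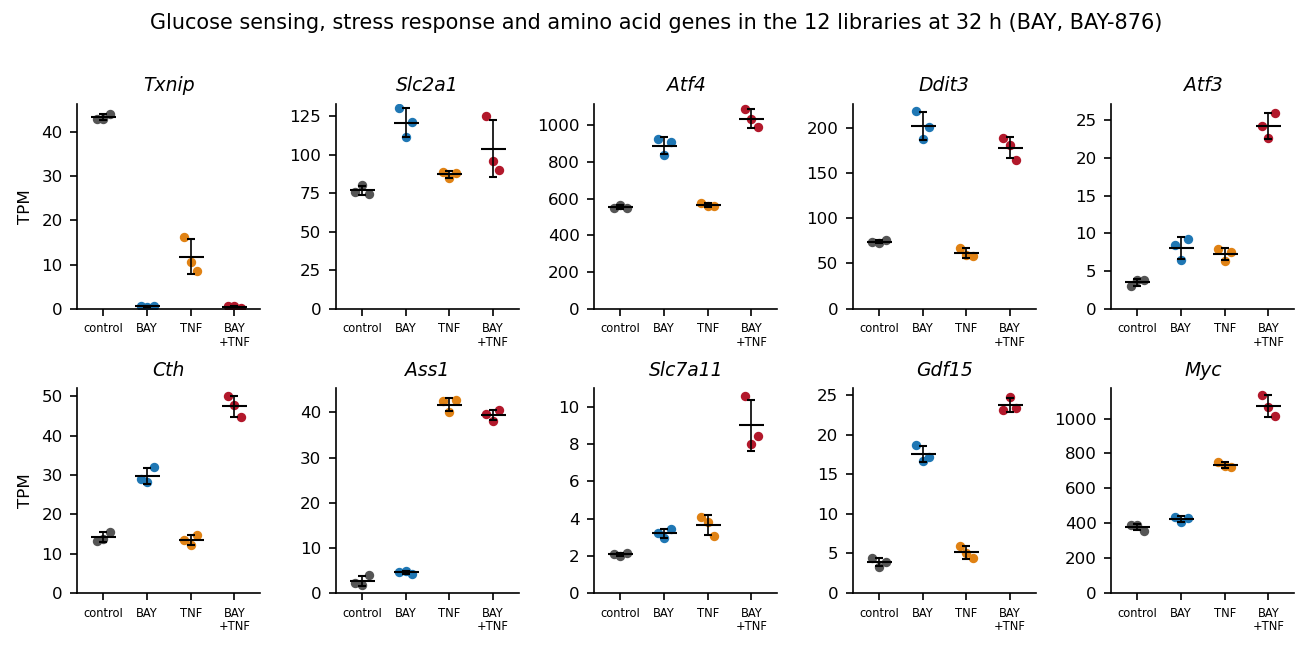
TPM of 10 genes of glucose sensing, stress response and amino acid metabolism in each of the 12 libraries (points, 3 per group), with the mean and SD of each group in black; axes are linear from 0, each with its own scale. Txnip is near 0 in both groups given BAY-876, and the combination libraries of Atf3, Cth, Slc7a11 and Gdf15 lie above all others.

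Txnip, the glucose-responsive inhibitor of thioredoxin and of glucose uptake (chr3:96557957-96561883 on the plus strand), had the largest fall of any named gene. It measured 43, 43.1 and 44.2 TPM in control, 0.653, 0.303 and 0.517 TPM with BAY-876, 16.2, 10.6 and 8.58 TPM with TNF and 0.516, 0.553 and 0.223 TPM with both. No difference between the combination and BAY-876 alone was detected (log2 -0.06 ± 0.19, SE; adjusted p = 0.82). TNF by itself also lowered Txnip (log2 -1.84, adjusted p = 8.53e-06). Its paralogue Arrdc4 stayed under 1 TPM in all 12 libraries and was not tested.

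The target of BAY-876, Slc2a1, held 75.4, 80.3 and 74.6 TPM in control and 125, 96 and 90.3 TPM under the combination, with replicate 1 well above the other combination libraries (log2 0.42 ± 0.10, SE; adjusted p = 0.0032). Slc2a3, a carrier with higher affinity, rose from 4.21 ± 0.617 to 7.22 ± 0.737 TPM (SD), and Slc2a6, a lysosomal family member, from 0.88 ± 0.586 to 4.3 ± 0.358 TPM (SD). Slc2a8, an intracellular carrier, fell from 9.7 ± 0.481 to 2.41 ± 0.0214 TPM (SD). Of 9 glucose-sensing and carrier genes tested 3 rose and 3 fell, with or without replicates 2 and 3.

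Glycolysis genes moved by less than 2-fold on log2(TPM + 1). Of 20 tested 5 rose and 10 fell, none by 2-fold, with a median of −0.22; without replicates 2 and 3, 4 rose and 8 fell. Pfkp, a phosphofructokinase, fell from 108 ± 12.4 to 53.9 ± 7.87 TPM (SD). That is about 2-fold on TPM and just short of it on log2(TPM + 1). Tpi1 and Pgk1 had log2 differences of -0.39 and -0.34. In the pentose phosphate branch the NADPH-producing enzymes G6pdx and Pgd rose by 0.40 and 0.50, within a list of 13 in which 6 rose and 5 fell (4 and 5 without replicates 2 and 3). Oga, which removes O-GlcNAc from proteins, fell from 39.8 ± 5.39 to 18.4 ± 2.12 TPM (SD). Idh1, a cytosolic isocitrate dehydrogenase that was counted in the tricarboxylic acid cycle list but acts outside the mitochondrion, fell from 189, 176 and 186 TPM to 57.7, 59.1 and 57.5 TPM, with 66 TPM under TNF alone and 171 TPM under BAY-876 alone, the latter not called against control (adjusted p = 0.15). Of the 24 genes of that list 6 rose and 10 fell, and 7 and 6 without replicates 2 and 3.

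Of 32 respiratory chain genes 10 rose and 5 fell, with a median of 0.04; the balance turned to 6 higher and 7 lower with quantile normalization and was 7 and 4 without replicates 2 and 3. The electron carrier Cycs rose by 0.70 and Cyc1 by 0.50, and Uqcrh was at -0.53.

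Most genes of the integrated stress response rose. Of 16 genes tested 13 rose and 1 fell, 5 rose at least 2-fold, and the median was 0.76; the counts were the same without replicates 2 and 3. Atf4, its central factor, measured 548, 568 and 551 TPM in control, 890.1 TPM with BAY-876, 566 TPM with TNF and 1091, 1033 and 989.6 TPM with both (log2 0.90 ± 0.04, SE; adjusted p = 8.21e-09). Ddit3 (CHOP), a target that can promote death, held 73.6, 72.8 and 75.5 TPM in control and 188, 181 and 165 TPM under the combination, and its difference from BAY-876 alone missed the threshold (log2 -0.18, adjusted p = 0.055). Atf3, a target shared by stress and inflammatory signalling, went from 2.93, 3.76 and 3.74 TPM in control to 24.2, 22.6 and 26 TPM, above 8.02 TPM with BAY-876 and 7.26 TPM with TNF, and no library overlapped with those groups. Gdf15, a secreted stress cytokine, rose from 3.89 ± 0.543 to 23.7 ± 0.915 TPM (SD). Against TNF alone 15 of the 16 genes were higher with both agents, where 10.8% of all genes were; without replicates 2 and 3, 12 were, where 7.44% of all genes were.

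Amino acid supply genes rose too. Of 22 enzymes and carriers tested 21 rose and none fell, with or without replicates 2 and 3, and 6 rose at least 2-fold; the median was 0.61, against 0.50 with BAY-876 alone and −0.09 with TNF alone. Slc3a2, the carriers' heavy chain, was the member that did not pass (adjusted p = 0.18) and is named after its value was seen. Cth, which makes cysteine from cystathionine, measured 13.3, 13.7 and 15.5 TPM in control, 29, 28.2 and 31.9 TPM with BAY-876, 13.4, 12.2 and 14.8 TPM with TNF and 50.0, 47.8 and 44.7 TPM with both. The difference of TNF alone from control missed the threshold (log2 -0.07, adjusted p = 0.52), and the combination exceeded BAY-876 alone by 0.66 ± 0.08 (SE; adjusted p = 5.53e-05).

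Slc7a11, the cystine importer, held 2.1, 2 and 2.13 TPM in control and 10.6, 8.03 and 8.45 TPM under the combination, with 3.21 and 3.65 TPM under BAY-876 and TNF. The mitochondrial folate enzymes Shmt2 and Mthfd2 rose by 0.97 and 1.16, and Aldh1l2 by 1.02. Ass1, which feeds arginine synthesis, differed from most of the list in its single-agent values. It measured 4.6 TPM with BAY-876, 41.8 ± 1.53 TPM with TNF and 39.4 ± 1.19 TPM with both, from 2.62 ± 1.18 TPM in control (SD). Against TNF alone 21 of the 22 genes were higher, where 10.8% of all genes were. The test for a different response to BAY-876 with TNF was passed by 6 of the 22, all above 0, where 1.62% of all genes passed. Of 17 aminoacyl-tRNA synthetases 16 rose and none fell, with or without replicates 2 and 3, led in size by Rars, Sars and Hars (0.68, 0.66 and 0.65).

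Endoplasmic reticulum chaperones moved the opposite way. Of 22 genes of that list 19 fell and 1 rose, with a median of −0.54; without replicates 2 and 3, 17 fell and 2 rose. Xbp1, a factor of the unfolded protein response, measured 116, 125 and 112 TPM in control and 48.4, 45.6 and 43.3 TPM under the combination (log2 -1.35 ± 0.05, SE; adjusted p = 1.98e-09). The disulfide isomerases Pdia6 and Pdia4 and the chaperone Hsp90b1 fell, with log2 differences of -1.08, -0.92 and -0.87. The single-agent medians of this list were −0.17 with BAY-876 and −0.42 with TNF. Set against TNF alone, 10 of the 22 were lower and 4 higher, where 24.5% and 10.8% of all genes were. Against BAY-876 alone 16 of the 22 were lower and none higher, where 25.5% of all genes were lower; without replicates 2 and 3, 12 were lower, where 16.2% of all genes were.

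Antioxidant genes were mixed, with 9 of 21 higher and 7 lower, and 8 and 5 without replicates 2 and 3. Sod2, the mitochondrial superoxide dismutase and a known NF-kappaB target, rose from 164, 162 and 163 TPM to 423, 481 and 467 TPM. Hmox1, which degrades haem, held 26.6 ± 0.462 TPM in control, 34.6 TPM with BAY-876, 27.7 TPM with TNF and 56.9 ± 3.4 TPM with both (SD). Catalase (Cat) fell from 27.1 ± 0.961 to 11.4 ± 1.54 TPM (SD).

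Of 29 cholesterol and fatty acid genes 16 rose and 7 fell, with a median of 0.34; without replicates 2 and 3, 15 rose and 7 fell. Fasn, fatty acid synthase, measured 88.2, 87.9 and 86.1 TPM in control, 242 TPM with BAY-876, 145 TPM with TNF and 315, 289.8 and 281 TPM with both (log2 1.74 ± 0.06, SE; adjusted p = 7.59e-10). Idi1, an enzyme of sterol synthesis, rose by 1.12. Among the 7 that fell were the desaturases Scd1, Scd2 and Fads1, named after their values were seen, with log2 differences of -0.91, -0.81 and -0.63. Against BAY-876 alone 16 of the 29 were lower with both agents and 3 higher, where 25.5% of all genes were lower and 20.1% higher. The excess of lower genes was smaller without replicates 2 and 3.

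Of 16 antigen presentation genes tested 9 rose and 3 fell, with a median of 0.34; without replicates 2 and 3, 9 rose and 2 fell. The class I heavy chain H2-K1 measured 66.8, 70.1 and 76.8 TPM in control, 62.4 TPM with BAY-876, 230.0 TPM with TNF and 196, 200.5 and 184 TPM with both. The light chain B2m held 443 ± 10.3 TPM in control, 706 ± 12 TPM with TNF and 643 ± 30.4 TPM with both (SD). Tapbp, which loads peptide, and Psmb8, an immunoproteasome subunit, rose by 1.00 and 0.66. Of the 16 genes 10 were lower than with TNF alone and none higher, where 24.5% and 10.8% of all genes were; without replicates 2 and 3, 4 were lower. Reads of H2 genes can be shared between near-identical family members, so that their single values are uncertain.

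Of 17 interferon-induced genes tested 10 fell and 4 rose, where 38.9% of all genes fell, with a median of −0.40. Without replicates 2 and 3, 7 fell and 4 rose. Isg15, a ubiquitin-like antiviral protein, measured 13.2, 14.9 and 12.3 TPM in control, 3.86 TPM with BAY-876, 5.01 TPM with TNF and 2.36, 3.6 and 3.66 TPM with both. Stat2 and Ifit2 fell, with log2 differences of -1.30 and -1.46. Ifitm3, a membrane protein that blocks virus entry, and Bst2 rose, the former from 242 ± 6.28 to 778 ± 58.2 TPM (SD). The checkpoint ligand gene Cd274 (PD-L1) stayed low, at 1.83 ± 0.417 TPM in control and 1.63 ± 0.127 TPM under the combination (SD; adjusted p = 0.53).

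Among 10 adhesion and checkpoint genes 4 rose and 3 fell, and 3 and 2 did so without replicates 2 and 3. Pvr, a ligand of T and NK cell receptors, rose from 13.5 ± 0.768 to 30.5 ± 1.93 TPM (SD), and Lgals9, a galectin, fell from 14.1 ± 0.662 to 3.54 ± 0.526 TPM (SD). Vcam1 stood at 29 ± 2.25 TPM in control, 59.6 ± 2.27 TPM with TNF and 38.6 ± 3.26 TPM with both (SD). Its difference from control was called with all libraries (log2 0.40, adjusted p = 0.0012) and not without replicates 2 and 3 (log2 0.26, adjusted p = 0.075).

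Every collagen and matrix gene tested fell. All 15 did, 13 of them at least 2-fold, with a median of −1.45, and all 15 also fell without replicates 2 and 3 and with quantile normalization. The single-agent medians were −0.30 with BAY-876 and −1.40 with TNF. Sparc, a collagen-binding matrix protein, measured 419.7, 410.1 and 391 TPM in control, 279 TPM with BAY-876, 108 TPM with TNF and 81.1, 76 and 73 TPM with both. Thbs1, thrombospondin, went from 23.4, 22.9 and 21 TPM in control to 1.05, 0.763 and 1.17 TPM, about the level with TNF alone (0.907 ± 0.161 TPM, SD). Col3a1 fell from 805 ± 13.5 to 310.4 ± 21.9 TPM and Loxl2, a collagen crosslinker, from 83.7 ± 1.58 to 18.8 ± 2.62 TPM (SD). Since these are bulk libraries, fewer cells with a transcript and less of it per cell cannot be told apart.

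Proteases and their inhibitors moved both ways, with 4 of 13 higher and 6 lower, the same without replicates 2 and 3 and 5 and 5 with quantile normalization. Mmp9, a gelatinase (chr2:164940780-164955850 on the plus strand), measured 0.384, 0.237 and 0.405 TPM in control, 0.23 TPM with BAY-876, 34.2 TPM with TNF and 29.6, 30.0 and 30.2 TPM with both. Plau, a protease that activates plasminogen, fell from 21.8 ± 0.785 to 8.52 ± 1.17 TPM (SD). The inhibitor Timp2 fell, with a log2 difference of -0.90.

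Most genes of the list drawn up for LLC identity also fell. Whether the identity of the line changed was not tested. Of 11 tested 9 fell and 1 rose, 6 of them fell at least 2-fold, and the counts of calls were the same without replicates 2 and 3. Their summed level went from between 15780 and 16280 TPM in control to between 6757 and 7162 TPM under the combination. It was between 15940 and 16180 TPM with BAY-876 alone and between 8048 and 8142 TPM with TNF alone. S100a4, a calcium-binding protein of migrating cells, measured 6195, 5951 and 6498 TPM in control and 1129, 1234 and 1302 TPM under the combination, with 6618 TPM under BAY-876 and 1397 TPM under TNF. The intermediate filament gene Vim and the caveola gene Cav1 fell, with log2 differences of -1.19 and -2.16, and the keratin gene Krt8 fell from 323 ± 10.0 to 97.5 ± 1.38 TPM (SD). Rhox5, a homeobox gene of tumour and germ cells, held 693 ± 20.9 TPM in control and 835 ± 38.4 TPM under the combination (SD), a rise of 0.27.

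Of 31 cell cycle genes tested 17 fell and 6 rose, where 38.9% and 21.6% of all genes did, with a median of −0.21, and the counts were the same without replicates 2 and 3. The single-agent medians of this list were −0.23 with BAY-876 and 0.01 with TNF. Set against BAY-876 alone, 9 of the 31 were higher and 7 lower, where 20.1% and 25.5% of all genes were. Mki67, a marker of cycling cells, measured 98.4, 98.1 and 98 TPM in control, 59.3 TPM with BAY-876, 76.1 TPM with TNF and 52.3, 47.9 and 48.7 TPM with both (log2 -0.97 ± 0.05, SE; adjusted p = 9.41e-09). Ccnb2, a mitotic cyclin, fell from 261 ± 10.1 to 114 ± 4.07 TPM (SD), and Cdkn1b, a cell cycle inhibitor, from 37.8 ± 3 to 16.3 ± 1.55 TPM (SD). Cdk6, a kinase of the early cycle, rose from 70.5 ± 3.25 to 122 ± 8.03 TPM (SD). Of 28 ribosomal protein genes 20 rose and none fell, with a median of 0.10 and none past 2-fold; 14 rose without replicates 2 and 3, and 14 with quantile normalization.

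Of 17 hypoxia genes 3 were higher and 7 lower, shares near those of all genes, which became 4 and 4 without replicates 2 and 3. Ndrg1, a stress-induced gene, rose from 34.3 ± 0.479 to 91.2 ± 13.5 TPM and Car12, a carbonic anhydrase, from 4.81 ± 0.395 to 15 ± 0.605 TPM (SD). Egln3, an oxygen-sensing hydroxylase, had 81.7, 65.1 and 50.1 TPM under the combination against 154, 158 and 149 TPM in control, with replicate 1 above the other combination libraries. Of 24 autophagy and lysosome genes 13 fell and 5 rose, and 10 and 5 did so without replicates 2 and 3. Wipi1, an autophagosome protein, fell from 33.9 ± 1.07 to 8.94 ± 0.885 TPM (SD). Irs2, the insulin receptor substrate, was counted in that list though it acts in insulin signalling. It fell from 10.2 ± 0.863 to 2.16 ± 0.481 TPM (SD). The cargo receptor Sqstm1 rose from 396 ± 13 to 540.1 ± 23.5 TPM (SD).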

How the data were processed

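RNA sequencing of 12 LLC libraries at 32 h was used, 3 per group, grouped by sample title. The deposited values are TPM per gene, each library summing to 1000000; the submitters' processing notes list STAR 2.6.1d, Salmon 0.13.1, DESeq2 1.34.0 and mm10, with no role given. The authors' tables also hold deposited log2 fold changes and adjusted p-values, which were copied and not refitted. Here log2(TPM + 1) was fitted with limma 3.58.1 (R 4.3.3, trended variance) over all 4 groups, for genes at 1 TPM or more in at least 3 of the 6 libraries compared, with Benjamini-Hochberg adjustment over all genes and a threshold of 0.05. The 24 columns of other time points were not used. Named genes were the 15 highest and 15 lowest called genes (libraries not overlapping, 5 TPM or more), the 6 smallest p of each of 33 lists, list members of 2-fold or more, and a fixed set. The members and lists were chosen with earlier results of these data known. Gene positions are from GENCODE M21 (GRCm38), and 521 of 526 named or listed genes were found once. Alternatives were another pseudocount, other filters, quantile normalization, a replicate block, only the 6 libraries, and libraries left out. The fit was tested on simulated data. Some genes that this rule names are not reported here.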

Additional observations from a re-analysis of the deposited data

Results flagged for a closer look

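For 26 named genes the response to BAY-876 on log2(TPM + 1) differed with and without TNF (limma, adjusted p under 0.05 over all genes tested). Each value is the log2 change on adding the inhibitor to TNF-exposed cells less the change on adding it to unexposed cells. It was above 0 for Txnip (1.78), Saa3 (1.65), Ifit1 (1.15), Slc7a3 (0.85), Aldh1l2 (0.84), C1qtnf1 (0.84), Thbs1 (0.74), Cth (0.73), Hmox1 (0.64), Sqstm1 (0.43), Gars (0.40), Myc (0.38), Sod2 (0.34), Pgd (0.27) and Slc16a1 (0.26). It was below 0 for C3 (−1.12), Cnn2 (−0.74), Tnfrsf12a (−0.59), Msmo1 (−0.50), Fosl2 (−0.49), Anxa1 (−0.44), Fasn (−0.43), Ccl2 (−0.39), Tpi1 (−0.33), Ifitm3 (−0.29) and Vim (−0.27).

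The values behind these differences were of several kinds. Saa3 averaged 1.81 TPM in control, 1.16 TPM with BAY-876, 11.1 TPM with TNF and 28.4 TPM with both. Txnip was under 1 TPM in all 6 libraries given BAY-876 and averaged 11.8 TPM with TNF alone. Ifit1, an antiviral gene, passed the filter through control alone, at 1.71 TPM in control against 0.208, 0.0415 and 0.0317 TPM in the other groups, so that its value shows no response of TNF-exposed cells. Thbs1 and C1qtnf1 were also already low with TNF alone. Thbs1 averaged 22.4, 13.6, 0.907 and 0.995 TPM in control, BAY-876, TNF and the combination. No difference of Thbs1 between TNF alone and the combination was detected (limma, log2 0.06, adjusted p = 0.68). C1qtnf1 averaged 20.0, 5.54, 2.25 and 0.795 TPM in the same order. Among the genes with values below 0, C3 averaged 36 TPM with TNF and 17.9 TPM with both. Slc7a3, a carrier of basic amino acids, averaged 16.5, 28, 12.1 and 37.4 TPM in control, BAY-876, TNF and the combination. Tnfrsf12a, the receptor of the TNF relative TWEAK, averaged 91.1, 162, 136 and 159.8 TPM in the same order. On log2(TPM + 1) equal folds do not give equal differences in low genes. In 2 alternatives chosen after seeing the data no value changed sign. With a pseudocount of 0.1 TPM, 7 of the 26 lost their call: C1qtnf1 (0.45, adjusted p = 0.37), C3, Ccl2, Ifit1, Saa3, Thbs1 and Txnip. Without combination replicates 2 and 3, 14 lost it: C1qtnf1, C3, Fasn, Fosl2, Ifit1, Msmo1, Pgd, Saa3, Slc7a3, Sod2, Thbs1, Tnfrsf12a, Tpi1 and Vim.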

How the results depend on the processing

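The 7453 calls became 6848 to 7179 with any of the 6 libraries left out (2446 to 2569 higher, 4386 to 4729 lower; 228 to 262 and 859 to 928 past 2-fold; 1121 to 1166 in all). With a library of the combination, BAY-876 or TNF left out, 4873 to 5247 genes differed from BAY-876 alone and 3606 to 4013 from TNF alone. Without the 2 combination libraries whose treatment labels name another compound, 2485 genes differed from TNF alone in place of 4350, in a fit with fewer samples. Requiring a mean of 5 TPM left 581 genes 2-fold lower, with fewer genes tested. Quantile normalization gave 398 genes 2-fold higher and 537 lower; the cause was not tested.

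No named gene that was called in the main fit changed sign in any alternative in which it was checked. Sign changes of uncalled genes were not recorded, and the filter at a mean of 5 TPM kept 188 of the 213 named genes. Of 213, 6 lost their call without both label-conflicted libraries (Bmf, Dcn, Il34, Itgav, Pdgfrb and Vcam1), and 3 with quantile normalization (Nectin2, Pdgfrb and Slc2a9). Cd68 lost its call in 7 alternatives (no filter, only the 6 libraries, and 5 of the 6 single libraries left out) and Pdgfrb in 6. No pairing by replicate number was seen between combination and control, though with 3 libraries a group this check cannot exclude it. Deviations of same-numbered libraries correlated at −0.0745, 0.121 and 0.0808, and those of differently numbered libraries at −0.233 to 0.165. With the replicate number as a block 7446 genes were called, 2666 higher and 4780 lower, with 7286 shared. TPM without counts gives no limit for low values, and with 3 libraries a group small differences in genes of a few TPM could be missed.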

Other observations

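Several genes of the TNF and glucose pathways were under the filter and enter no count. Tnf itself was at 0 in all 3 combination libraries and at most 0.0647 TPM in control. Il6 was at most 0.107 TPM in the 6 libraries compared. Icam1, an adhesion gene, was listed at 0 in all 3 control libraries and at 0.544, 0.882 and 0.564 TPM under the combination, with 1.88, 1.65 and 1.44 TPM under TNF alone. Arrdc4 was at 0.788, 0.778 and 0.727 TPM in control and at 0.269, 0.121 and 0.154 TPM under the combination.

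The authors' deposited tables compare the combination with each single agent and not with control. For Cxcl2 the authors' deposited table gave a log2 difference of 1.33 from TNF alone (adjusted p = 3.05e-13). For Cth the authors' deposited table gave 0.73 from BAY-876 alone (adjusted p = 4.69e-13) and 1.91 from TNF alone. For Casp8 the authors' deposited table gave -0.65 from TNF alone (adjusted p = 4.97e-11) and -0.19 from BAY-876 alone (adjusted p = 0.12); the fit here gave -0.24 for the latter (adjusted p = 0.0062), a call that was lost without replicates 2 and 3 (adjusted p = 0.086). For C3 the authors' deposited table gave -0.92 from TNF alone (adjusted p = 2.62e-40).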
